A study of Mus musculus with 16 samples.

Results

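The 10 genes described here encode the mouse receptor for interleukin-3 (Il3ra, Csf2rb and Csf2rb2), 3 STAT transcription factors (Stat3, Stat5a and Stat5b) and 4 members of the SOCS family of feedback inhibitors (Cish, Socs1, Socs2 and Socs3). They were taken by gene name from a count table of 55487 genes. Each name matched 1 row, and all 10 passed the filter on low counts that left 15470 genes for testing. Polyadenylated RNA had been sequenced from cultured mouse bone marrow-derived cells on a C57BL/6 background, in 4 groups of 4 libraries: Nbeal2-/- cells with IL-33, Nbeal2-/- untreated cells, wild-type (WT) cells with IL-33 and WT untreated cells. Nbeal2 encodes a BEACH-domain protein known for its part in platelet granules, and IL-33 is an alarmin cytokine sensed by mast cells. The title calls the cells mast cells, but the cell type label spells the abbreviation out as mononuclear cells. The sources used here do not give the deleted part of Nbeal2, the dose and time of IL-33, the cytokines of the medium or the number of mice. The labels do not tie replicates to separate mice or cultures, so every p-value measures the spread among these libraries, which may be technical.

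Interleukin-3 (IL-3) is the growth factor on which mouse mast cells are commonly raised from bone marrow. It binds an alpha chain, encoded by Il3ra, which pairs with a beta chain. Mice have 2 such beta chains: the common chain encoded by Csf2rb, which IL-5 and GM-CSF also use, and a chain encoded by Csf2rb2 that serves IL-3 alone. The kinase JAK2 sits on the beta chain and phosphorylates STAT5A and STAT5B, which move to the nucleus and switch on target genes. Cish, Socs1, Socs2 and Socs3 are among the genes that STAT proteins induce, and their products bind receptors or JAK kinases and damp the signal.

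STAT5 proteins are known to bind the palindrome TTCNNNGAA, so the promoters of the members were read for it. RefSeq promoter windows on GRCm38.p6, from 250 bases before to 50 bases after a transcription start, were given for 8 of the 10 members. Csf2rb and Socs2 had none. The motif reads the same on both strands and was found in a window of 3 of the 8 members, against 9.55% of all genes with a window and 8.3% of all 32851 windows. The Cish window held 2 matches, which 0.457% of all windows do. The 3 windows are printed because they are the ones with a match, 5′ to 3′ on the strand of the gene, with the matches in capitals. They lie at chr9:107296409-107296708 on the plus strand for Cish, at chr15:78305672-78305971 on the minus strand for Csf2rb2 and at chr11:117969317-117969616 on the minus strand for Socs3.
Cish: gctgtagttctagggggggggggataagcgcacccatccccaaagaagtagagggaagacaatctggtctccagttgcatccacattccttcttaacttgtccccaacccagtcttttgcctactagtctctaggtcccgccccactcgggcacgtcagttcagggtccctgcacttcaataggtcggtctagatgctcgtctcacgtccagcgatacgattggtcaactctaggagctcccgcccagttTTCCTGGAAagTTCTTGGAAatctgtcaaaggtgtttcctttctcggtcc
Csf2rb2: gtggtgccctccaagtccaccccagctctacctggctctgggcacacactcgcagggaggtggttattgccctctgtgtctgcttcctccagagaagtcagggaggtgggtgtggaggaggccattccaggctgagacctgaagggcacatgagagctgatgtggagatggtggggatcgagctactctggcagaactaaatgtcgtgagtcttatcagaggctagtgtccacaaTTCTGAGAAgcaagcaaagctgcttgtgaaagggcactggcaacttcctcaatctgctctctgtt
Socs3: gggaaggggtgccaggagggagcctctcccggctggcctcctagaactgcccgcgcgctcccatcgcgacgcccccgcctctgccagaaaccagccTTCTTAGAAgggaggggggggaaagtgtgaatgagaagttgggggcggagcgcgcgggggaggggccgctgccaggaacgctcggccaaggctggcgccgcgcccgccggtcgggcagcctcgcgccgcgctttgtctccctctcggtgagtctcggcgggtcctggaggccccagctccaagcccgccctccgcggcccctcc
In Cish the matches TTCCTGGAA and TTCTTGGAA began 0 and 11 bases from the start. In Csf2rb2 the match TTCTGAGAA began at -15, and in Socs3 the match TTCTTAGAA began at -154. The windows of Il3ra, Stat3, Stat5a, Stat5b and Socs1 held no match, which says only that these letters are not in those windows. A match is a run of letters and not a measured binding site.

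Library totals ran from 36405209 to 57694499 counts. The library scaling factors (TMM) were 0.951 to 0.977 with IL-33 and 1.02 to 1.06 in untreated libraries. Levels are given as CPM, TMM-scaled reads of a gene relative to the library's total, unless RPKM or RPM is named. Nbeal2 averaged 70.7 ± 5.38 CPM in Nbeal2-/- with IL-33, 92.6 ± 8.13 CPM in Nbeal2-/- untreated, 236 ± 35.2 CPM in WT with IL-33 and 377 ± 103 CPM in WT untreated cells (SD, n = 4 each). WT untreated replicate 1 stood apart, with 224 CPM of Nbeal2 against 413 to 448 CPM in the other WT untreated libraries. Over all genes, its chi-square over degrees of freedom against those libraries was 36.8 to 47.1, and theirs among themselves 15.2 to 19.7. Nbeal2-/- untreated replicate 1 also stood apart, at 42.5 to 67.8 against its group, where the other pairs gave 7.65 to 11.7. With IL-33, replicate 1 stood apart less. In Nbeal2-/- cells it gave 8.04 to 16.4 against its group, where the other pairs gave 5.34 to 10.1. In WT cells it gave 9.11 to 25.7, where the other pairs gave 12.3 to 19.8. Counts are also given without all 4 libraries numbered 1. The 12 mast cell markers summed to between 46000 and 63660 RPM in every library. Of the defining ones, Fcer1a averaged 5109 CPM or more in each group and Ms4a2 1591 CPM or more. Kit fell with IL-33 in Nbeal2-/- (log2 fold change -1.11) and in WT cells (-1.25), as did Cpa3 (-0.34 and -0.48). Kit and Il1rl1, an IL-33 receptor gene, were lower in Nbeal2-/- than in WT cells, untreated (-0.64 and -0.32) and with IL-33 (-0.51 and -0.20). Ms4a2 and Cpa3 were lower in untreated Nbeal2-/- cells only (-0.18 and -0.15). The part of these differences in the members' values was not tested. Neutrophil markers (10 genes) summed to 2 RPM at most. Monocyte and macrophage markers (9 genes) ran from 51.3 to 696 RPM, nearly all of it Ccr2, with Csf1r at or below 0.5 CPM.

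Levels can be compared between genes only per length, for which the deposited RPKM values serve. Csf2rb2, the beta chain used by IL-3 alone, was the highest of the 10 in all 4 groups. It averaged 1281 ± 28.7 RPKM in Nbeal2-/- with IL-33, 2063 ± 217 RPKM in Nbeal2-/- untreated, 1217 ± 52.1 RPKM in WT with IL-33 and 2105 ± 234 RPKM in WT untreated cells. That placed it 17th to 26th of the genes tested. In raw reads per library it ranked between 2nd and 6th of all genes and took 0.577% to 0.998% of the counts on average. Csf2rb came next at 564 to 685 RPKM and Cish followed at 88.6 to 107 RPKM, as group means. The alpha chain gene Il3ra averaged only 23.8 to 29.2 RPKM.

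Below Cish the order differed between the groups, and several neighbours could not be separated. In Nbeal2-/- cells with IL-33 it ran Socs1 (37.7 RPKM), Socs3 (28.5), Stat5b (24.5), Il3ra (23.8), Stat5a (16.8), Stat3 (10.5) and Socs2 (7.20), and the library ranges overlapped for each neighbouring pair among the first 4. In Nbeal2-/- untreated cells it ran Socs1 (84.8 RPKM), Stat5b (32.5), Socs3 (32.1), Il3ra (29.2), Stat5a (21.9), Stat3 (18.01) and Socs2 (8.13). There the range of Socs1 reached into that of Cish, and Stat5b, Socs3 and Il3ra overlapped. In WT cells with IL-33 it ran Socs3 (42.5 RPKM), Socs1 (36.9), Il3ra (26.5), Stat5b (25.1), Stat5a (18.1), Stat3 (10.4) and Socs2 (7.73), with overlap between Socs3 and Socs1 and between Il3ra and Stat5b. In WT untreated cells it ran Socs1 (75.2 RPKM), Socs3 (41.2), Stat5b (36.3), Il3ra (29.2), Stat3 (22.8), Stat5a (22.3) and Socs2 (9.34), with overlap between Socs3 and Stat5b and between Stat3 and Stat5a. Socs2 was the lowest of the 10 in all 4 groups.

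**Figure D1:**
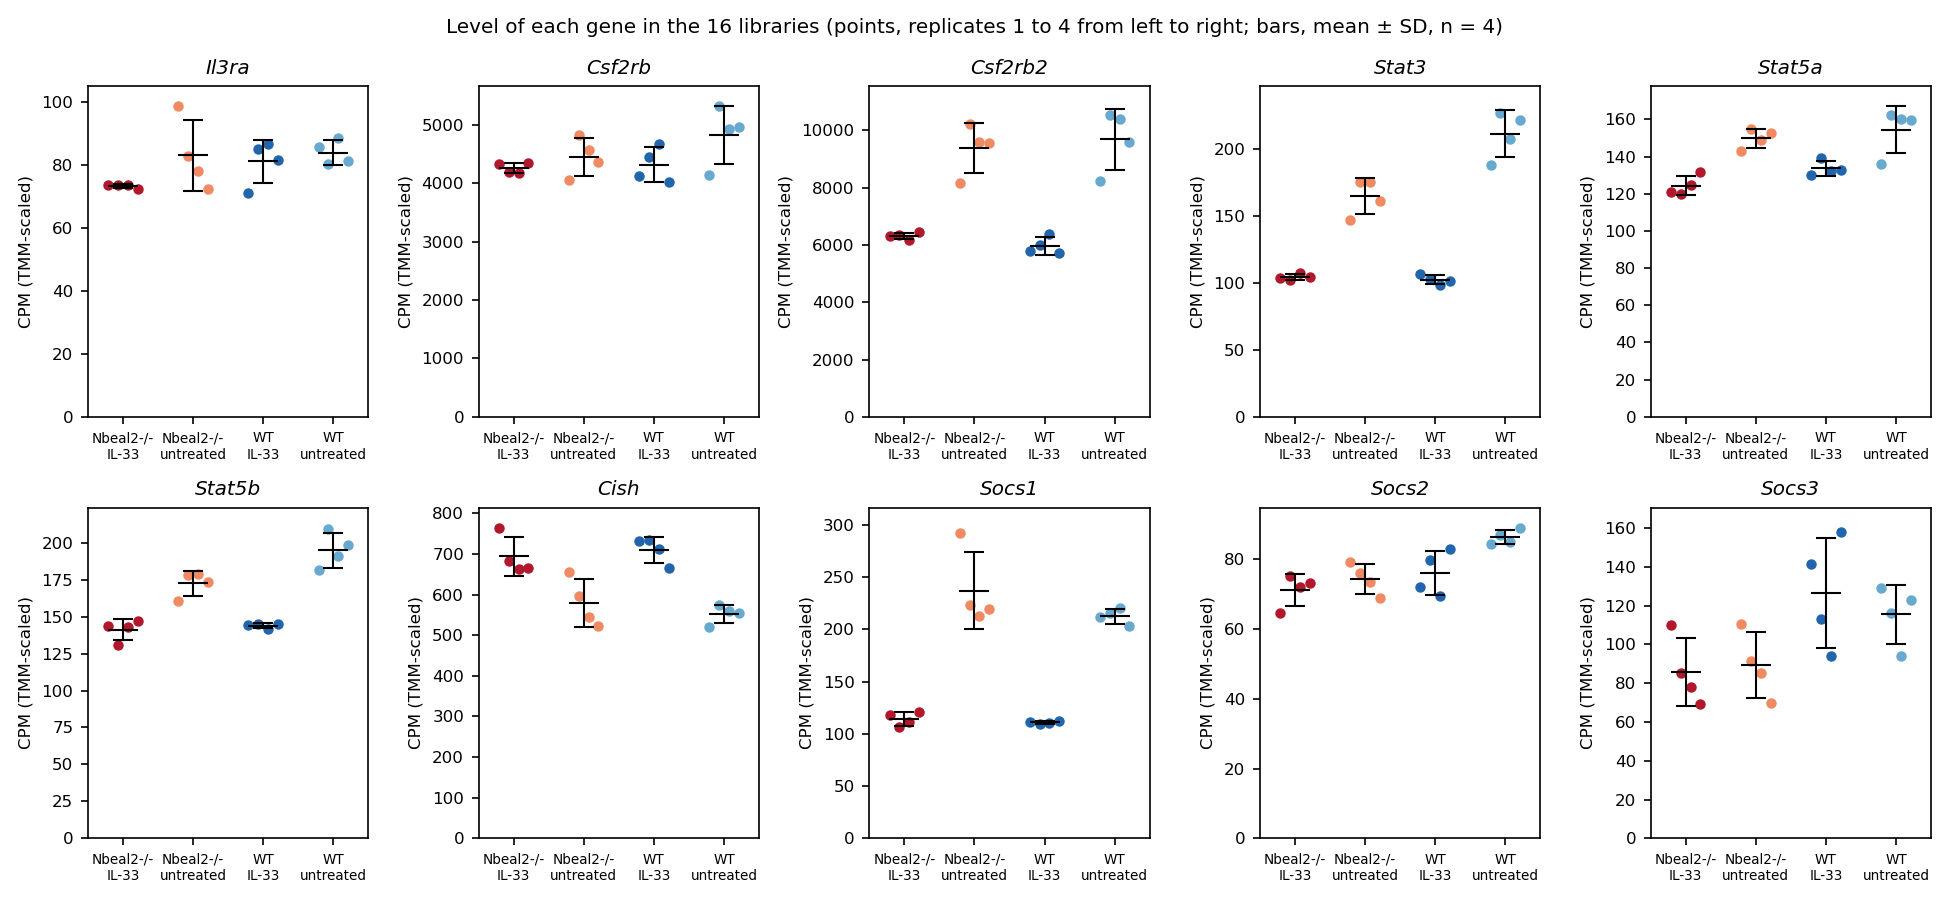
Level of the 10 genes in each of the 16 libraries, in TMM-scaled CPM, with each axis starting at 0. Points are replicates 1 to 4 from left to right within a group, and bars give the mean ± SD of 4 libraries; Stat3, Socs1 and Csf2rb2 lie lower in both IL-33 groups with no overlap, and Cish lies higher.

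The first comparison asked what IL-33 did to these transcripts in each genotype. In Nbeal2-/- cells Cish was higher with IL-33, and Csf2rb2, Stat3, Stat5a, Stat5b and Socs1 were lower. In WT cells the same genes moved the same way, and Socs2 was lower as well. Socs1, which encodes a direct inhibitor of JAK kinases, and Stat3 changed most, by -1.06 for Socs1 and -0.66 for Stat3 on the log2 scale in Nbeal2-/- cells and by -0.94 and -1.05 in WT cells. By edgeR's quasi-likelihood test, with Benjamini-Hochberg adjustment over all 15470 genes and a threshold of 0.05, 6 of the 10 passed in Nbeal2-/- cells (1 higher, 5 lower), where 55.1% of all genes passed (27.2% higher, 27.9% lower). In WT cells 7 passed (1 higher, 6 lower), where 57.6% of all genes passed (28.9% higher, 28.6% lower). The change exceeded 2-fold for 1 member in each genotype, Socs1 in Nbeal2-/- and Stat3 in WT cells, against 12.5% and 13.1% of all genes. The libraries of the compared groups did not overlap for 6 members in each genotype, against 50.7% of all genes in Nbeal2-/- and 52.4% in WT cells. The median log2 fold change over the 10 was -0.22 in Nbeal2-/- cells and -0.20 in WT cells, against -0.01 and 0.00 over all genes. Fewer cells of a type and less RNA per cell cannot be told apart in such bulk libraries.

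The scaling bears on these counts. With library totals in place of TMM the median of all genes shifted to -0.13 in Nbeal2-/- cells and -0.09 in WT cells, and of the genes that passed 33.5% and 38.0% were higher, against 49.4% and 50.3% with TMM. Then 8 members were lower and 1 higher in Nbeal2-/- cells, and 7 lower and 1 higher in WT cells. Without the 4 libraries numbered 1, Csf2rb passed too, which made 7 members in Nbeal2-/- cells (log2 -0.14 for Csf2rb, adjusted p = 0.0360) and 8 in WT cells (log2 -0.23, adjusted p = 0.00101). Markers of other cells also moved with IL-33. The 6 megakaryocyte and platelet markers, mostly Itga2b, summed to 1405 to 1504 RPM with IL-33 and 2211 to 2401 RPM untreated in Nbeal2-/- cells, and to 1412 to 1464 RPM with IL-33 and 2451 to 2566 RPM untreated in WT cells, with Ppbp at 0 throughout. The 6 basophil markers summed to 347 to 366 RPM with IL-33 and 411 to 462 RPM untreated in Nbeal2-/- cells, and to 359 to 426 RPM with IL-33 and 488 to 583 RPM untreated in WT cells. The 8 lymphocyte markers summed to 8.01 to 11.1 RPM with IL-33, mostly Ncr1, and to 0.431 RPM at most in untreated libraries. The 6 eosinophil markers summed to 1.91 to 3.13 RPM with IL-33 and 8.14 to 11.1 RPM untreated in Nbeal2-/- cells, and to 7.27 to 10.2 RPM with IL-33 and 19.5 to 21.4 RPM untreated in WT cells, with Epx at 0 throughout. The 5 erythroid markers summed to 9.38 to 13.3 RPM with IL-33 and 3.82 to 5.43 RPM untreated in Nbeal2-/- cells, and to 8.93 to 12.5 RPM with IL-33 and 3.25 to 4.77 RPM untreated in WT cells. The part of these shifts in the members' values was not tested.

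**Figure D2:**
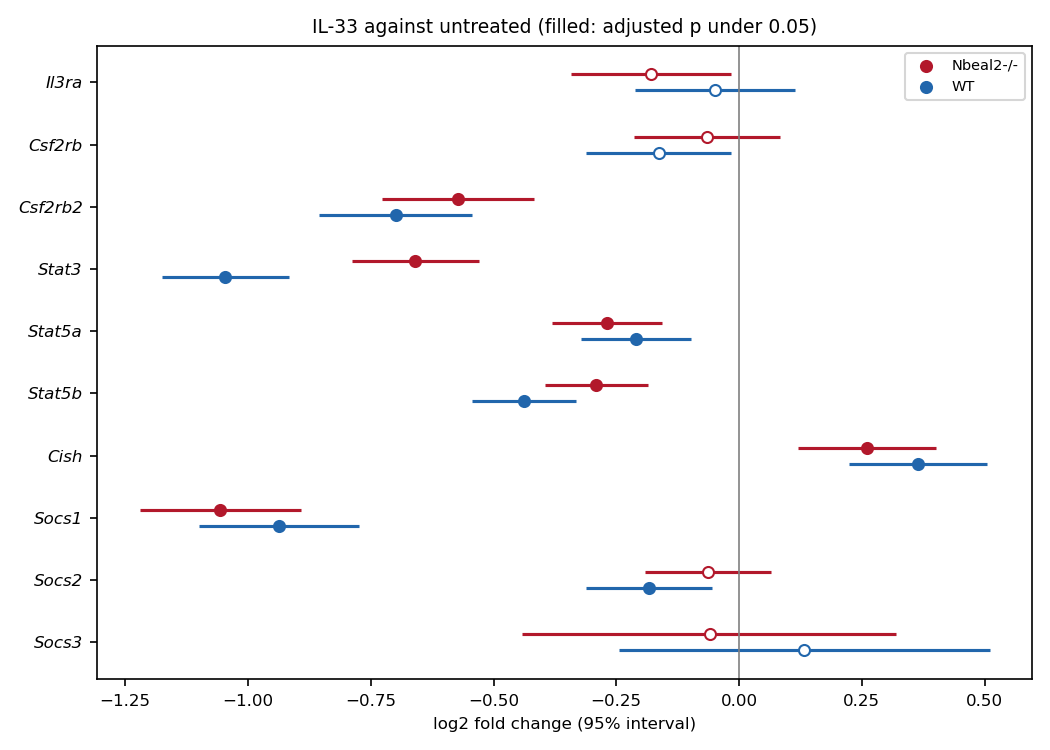
Log2 fold change of each gene with IL-33 against untreated (horizontal axis), in Nbeal2-/- and in WT cells, with 95% intervals from the edgeR fit of 16 libraries. Filled points passed the threshold of 0.05 after adjustment over all genes; Socs1 and Stat3 lie farthest to the left and Cish is the only filled point on the right.

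Of the receptor genes, Csf2rb2 changed most. It stood at 6326, 6329, 6161 and 6432 CPM in Nbeal2-/- libraries with IL-33, against 8173, 10230, 9590 and 9538 CPM in Nbeal2-/- untreated libraries (replicates 1 to 4). In WT cells it stood at 5787, 5982, 6387 and 5701 CPM with IL-33, against 8225, 10530, 10390 and 9586 CPM untreated. The highest library with IL-33 lay below the lowest untreated library in both genotypes. It was 1.49-fold lower in Nbeal2-/- cells (log2 -0.57, SE 0.07, adjusted p = 3.51e-06) and 1.62-fold lower in WT cells (log2 -0.70, SE 0.07, adjusted p = 2.92e-07).

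Its neighbour Csf2rb, the common beta chain, moved less. It had 4326, 4196, 4178 and 4348 CPM in Nbeal2-/- libraries with IL-33 and 4060, 4826, 4582 and 4366 CPM in Nbeal2-/- untreated libraries. In WT libraries it had 4123, 4453, 4672 and 4028 CPM with IL-33 and 4143, 5322, 4928 and 4960 CPM untreated. The groups overlapped in both genotypes, and the log2 fold changes were -0.07 (SE 0.07, adjusted p = 0.458) in Nbeal2-/- and -0.16 (SE 0.07, adjusted p = 0.0549) in WT cells. The WT value sat at the threshold, and it passed in 18 of 29 alternatives, the sum with Csf2rb2 among them. The adjusted p was 0.0421 when same-numbered libraries of a genotype were paired. It was 0.00165 without WT untreated replicate 1, the lowest untreated library. It was 0.0169 to 0.0499 without any 1 of WT IL-33 replicates 2 and 3, Nbeal2-/- IL-33 replicates 1 to 4 and Nbeal2-/- untreated replicates 1 and 2. Il3ra, the alpha chain, had 72.4 to 73.8 CPM with IL-33 and 72.6 to 98.9 CPM untreated in Nbeal2-/- cells (log2 -0.18, adjusted p = 0.0570, and 0.0138 to 0.0476 without any 1 of WT untreated replicates 1 and 4, WT IL-33 replicates 1 to 4 and Nbeal2-/- untreated replicates 3 and 4), and 71.3 to 86.8 CPM with IL-33 and 80.4 to 88.6 CPM untreated in WT cells (log2 -0.05, adjusted p = 0.603).

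Csf2rb and Csf2rb2 lie 20.03 kb apart on chromosome 15, on opposite strands. Of the 50-base words in the transcripts of Csf2rb2, 18.4% also occur in those of Csf2rb, and 12.3% the other way, so some reads could have been lost or placed on either gene. When both genes were counted as 1, the sum was 1.31-fold lower with IL-33 in Nbeal2-/- cells (adjusted p = 0.000167) and 1.41-fold lower in WT cells (adjusted p = 1.14e-05). The ratio of Csf2rb2 to Csf2rb counts within a library was 1.46, 1.51, 1.48 and 1.48 in Nbeal2-/- with IL-33, 2.01, 2.12, 2.09 and 2.19 in Nbeal2-/- untreated, 1.40, 1.34, 1.37 and 1.42 in WT with IL-33, and 1.99, 1.98, 2.11 and 1.93 in WT untreated libraries. No library with IL-33 reached the ratio of any untreated library. Among the libraries with IL-33, every Nbeal2-/- ratio lay above every WT ratio. This ratio was chosen after its values were seen and is a description. An exact two-sided permutation test of 4 against 4 libraries cannot go below p = 0.0286. The test gave that value for IL-33 in both genotypes and for Nbeal2-/- against WT cells with IL-33. Over 12 such tests of ratios the smallest adjusted value was 0.0571.

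Stat3, which transmits signals of the IL-6 and IL-10 families among others, fell with IL-33. It had 103, 102, 107 and 104 CPM in Nbeal2-/- libraries with IL-33, against 147, 175, 176 and 161 CPM in Nbeal2-/- untreated libraries. In WT libraries it had 106, 103, 98.2 and 102 CPM with IL-33, against 188, 227, 208 and 222 CPM untreated. Both IL-33 groups sat in 1 narrow range, well below all untreated libraries. The fall was 1.58-fold in Nbeal2-/- cells (log2 -0.66, SE 0.06, adjusted p = 6.22e-08) and 2.07-fold in WT cells (log2 -1.05, SE 0.06, adjusted p = 1.41e-10).

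Stat5b, 1 of the STAT5 genes through which IL-3 acts, had 144, 131, 143 and 147 CPM with IL-33 and 161, 178, 179 and 173 CPM untreated in Nbeal2-/- libraries. In WT libraries it had 144, 145, 141 and 145 CPM with IL-33 and 181, 209, 191 and 198 CPM untreated. It was lower without overlap in both genotypes, by 1.22-fold in Nbeal2-/- cells (log2 -0.29, adjusted p = 8.24e-05) and 1.36-fold in WT cells (log2 -0.44, adjusted p = 7.52e-07). Stat5a, the other STAT5 gene, ran from 120 to 132 CPM with IL-33 and from 143 to 155 CPM untreated in Nbeal2-/- cells (log2 -0.27, adjusted p = 0.000328). In WT cells it ran from 130 to 139 CPM with IL-33 and from 136 to 162 CPM untreated (log2 -0.21, adjusted p = 0.00259), where the groups overlapped through WT untreated replicate 1. Stat5a, Stat5b and Stat3 lie side by side on chromosome 11. Stat5a and Stat5b are 8.626 kb apart, and exons of Stat5a and Stat3 overlap by 72 bases on opposite strands. Whether the counting used strand is not stated in the labels, so reads from those bases are uncertain. Stat5a and Stat5b share 608 words of 50 bases, and their summed counts fell by 0.28 on the log2 scale in Nbeal2-/- cells (adjusted p = 0.000112) and by 0.33 in WT cells (adjusted p = 1.76e-05).

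The SOCS family divided. Socs1 had 118, 106, 111 and 121 CPM with IL-33, against 292, 224, 213 and 220 CPM untreated, in Nbeal2-/- libraries. In WT libraries it had 111, 109, 111 and 113 CPM with IL-33, against 211, 215, 220.0 and 203 CPM untreated. The fall was 2.08-fold in Nbeal2-/- cells (log2 -1.06, SE 0.08, adjusted p = 2.82e-09) and 1.91-fold in WT cells (log2 -0.94, SE 0.08, adjusted p = 1.26e-08). Every library with IL-33 lay far below every untreated one, and Socs1 shared no 50-base word with another gene.

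Cish, whose product CIS blocks STAT5 docking on receptors, moved the other way. It had 764, 683, 664 and 666 CPM with IL-33, against 656, 596, 545 and 522 CPM untreated, in Nbeal2-/- libraries. In WT libraries it had 731, 734, 712 and 665 CPM with IL-33, against 521, 573, 559 and 554 CPM untreated. It was higher in 8 of 8 same-numbered pairs, 1.20-fold in Nbeal2-/- cells (log2 0.26, SE 0.07, adjusted p = 0.00293) and 1.29-fold in WT cells (log2 0.36, SE 0.07, adjusted p = 0.000145). Exons of Gm17041, an antisense gene, and Gm17040, a pseudogene on the opposite strand, cover 7.46% and 4.07% of the Cish exon bases, so reads from those bases are uncertain. The ratio of Socs1 to Cish counts, chosen after its values were seen, was 0.155 to 0.181 with IL-33 and 0.375 to 0.446 untreated in Nbeal2-/- cells, and 0.149 to 0.170 with IL-33 and 0.366 to 0.406 untreated in WT cells.

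Socs2, which is known for restraining growth hormone signalling, had 64.7 to 75.4 CPM with IL-33 and 69.0 to 79.3 CPM untreated in Nbeal2-/- cells (log2 -0.06, adjusted p = 0.406). In WT cells it had 69.6 to 83.1 CPM with IL-33 and 84.5 to 89.2 CPM untreated (log2 -0.18, SE 0.06, adjusted p = 0.0156). Of the 50-base words in the transcripts of Socs2, 4.53% also occur in another gene and 4.19% in Gm9847, so some reads are uncertain. Socs3, an inhibitor of receptors that signal through STAT3, had 110, 85.3, 77.8 and 69.3 CPM with IL-33 and 111, 91.6, 85.3 and 69.8 CPM untreated in Nbeal2-/- libraries. In WT libraries it had 141, 113, 94.2 and 158 CPM with IL-33 and 129, 116, 93.9 and 123 CPM untreated. Its libraries spread more widely around their mean than those of the other 9 genes in every group, and neither response passed (log2 -0.06, adjusted p = 0.800 in Nbeal2-/-; log2 0.13, adjusted p = 0.546 in WT cells). Within same-numbered libraries of a genotype, IL-33 over untreated for Socs3 was 0.913 to 0.994 in Nbeal2-/- cells and 0.974 to 1.28 in WT cells.

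The second comparison set Nbeal2-/- against WT cells. Untreated Nbeal2-/- cells had less Stat3, Stat5b and Socs2, and none of the 10 was higher. These 3 of 10 compare with 35.9% of all genes that passed, and the 3 lower ones with 17.5%. The 3 did not overlap between the groups, as held for 28.2% of all genes, and none changed over 2-fold, against 3.37%. Stat3, with the values above, was 1.28-fold lower (log2 -0.36, SE 0.06, adjusted p = 0.000307), and the highest Nbeal2-/- library lay below the lowest WT library. Stat5b was 1.13-fold lower (log2 -0.18, SE 0.05, adjusted p = 0.0116), and Socs2 1.16-fold lower (log2 -0.22, SE 0.06, adjusted p = 0.0111), also without overlap. The Stat5b call was lost when Stat5a and Stat5b were summed (adjusted p = 0.0774) and when only the 8 untreated libraries were fitted (adjusted p = 0.0551). Csf2rb passed as well without the 4 libraries numbered 1 (log2 -0.15, adjusted p = 0.0347) and without WT untreated replicate 1 alone (log2 -0.19, adjusted p = 0.0189), and Socs1 was higher without Nbeal2-/- untreated replicate 3 (log2 0.21, adjusted p = 0.0493).

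The other 7 gave log2 differences from -0.37 (Socs3, adjusted p = 0.116) to 0.16 (Socs1, adjusted p = 0.114). The 95% interval for Csf2rb2 was -0.20 to 0.11. That of Cish was -0.07 to 0.21. In Nbeal2-/- untreated libraries Socs1 was highest in replicate 1, at 292 CPM. The mast cell markers summed to 46000 to 50800 RPM in these Nbeal2-/- libraries and to 60910 to 63660 RPM in WT untreated libraries. Mrgprb1 was at 0 in the Nbeal2-/- libraries, but 1 of the 12 markers averaged under 1 RPM in each of the 4 groups, WT included. The eosinophil markers summed to 8.14 to 11.1 RPM in Nbeal2-/- untreated libraries and to 19.5 to 21.4 RPM in WT untreated libraries. Basophil markers (411 to 462 against 488 to 583 RPM) and megakaryocyte and platelet markers (2211 to 2401 against 2451 to 2566 RPM) were also lower in Nbeal2-/- libraries. Monocyte and macrophage markers ran from 324 to 576 RPM in Nbeal2-/- and from 74.7 to 696 RPM in WT untreated libraries. The part of these markers in the differences was not tested.

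With IL-33, no member passed between Nbeal2-/- and WT cells by edgeR, where 11.2% of all genes passed (5.49% higher, 5.69% lower, 1.73% over 2-fold). No member was free of overlap between the groups, against 22.9% of all genes. One member, Socs3, had an unadjusted p below 0.05. DESeq2 and limma each called 1 member. Socs3 averaged 85.6 ± 17.5 CPM in Nbeal2-/- and 127 ± 28.5 CPM in WT cells with IL-33 (SD, n = 4 each), a log2 difference of -0.57 (SE 0.18, adjusted p = 0.0553). The groups overlapped, since WT replicate 3 had 94.2 CPM and Nbeal2-/- replicate 1 had 110 CPM. Socs3 passed in 10 of 27 alternatives, among them DESeq2 (adjusted p = 0.00726), limma (0.0377), a block on the replicate number (0.0149) and the fits without WT IL-33 replicate 3 (0.0178), without Nbeal2-/- IL-33 replicate 1 (0.0209), without WT untreated replicate 3 (0.0492) and without Nbeal2-/- untreated replicate 4 (0.0466). Without the 4 libraries numbered 1 the member that passed was Il3ra (log2 -0.21, adjusted p = 0.00965). With only the 8 IL-33 libraries in the fit the member that passed was Stat5a (log2 -0.11, adjusted p = 0.0406). The mast cell markers summed to 50320 to 53770 RPM in Nbeal2-/- and 61180 to 63120 RPM in WT libraries with IL-33, and the eosinophil markers to 1.91 to 3.13 RPM in Nbeal2-/- and 7.27 to 10.2 RPM in WT libraries; the part of these in the comparison was not tested. For Stat3 the 95% interval with IL-33 was -0.10 to 0.16, and for Csf2rb2 it was -0.07 to 0.24.

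**Figure D3:**
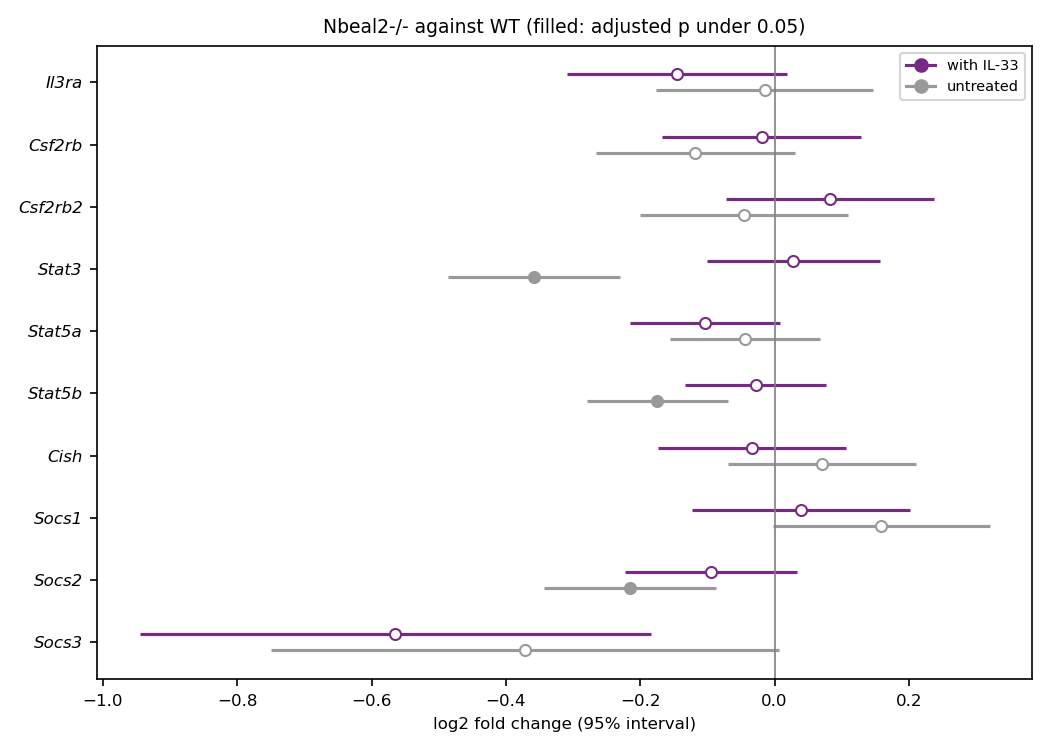
Log2 fold change of each gene in Nbeal2-/- against WT cells (horizontal axis), with IL-33 and untreated, with 95% intervals from the edgeR fit of 16 libraries. Filled points passed the threshold of 0.05 after adjustment over all genes; Stat3, Stat5b and Socs2 are filled for untreated cells and no point is filled with IL-33.

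The third comparison asked whether the response to IL-33 itself differed between the genotypes. Of the 10 members only Stat3 passed, where 4.56% of all genes did (2.01% higher, 2.55% lower). Its fall was smaller in Nbeal2-/- than in WT cells, with a difference of 0.39 on the log2 scale (SE 0.09, 95% interval 0.21 to 0.57, adjusted p = 0.0153). Taken within replicate numbers, IL-33 over untreated was 0.703, 0.583, 0.610 and 0.649 in Nbeal2-/- cells, against 0.565, 0.453, 0.473 and 0.458 in WT cells. All 4 Nbeal2-/- values lay above all 4 WT values. The IL-33 groups were alike in level, at 104 ± 2.16 CPM in Nbeal2-/- and 102 ± 3.32 CPM in WT cells, while the untreated groups stood at 165 ± 13.6 CPM in Nbeal2-/- and 211 ± 17.5 CPM in WT cells. Stat3 passed in all 27 alternatives, with adjusted p between 0.00117 and 0.0382. The number of genes that passed was less steady, at 706 of 15470, and was 1174 without WT untreated replicate 1. It was 462, 439, 442, 461 and 462 without WT untreated replicate 2, WT IL-33 replicate 4, Nbeal2-/- IL-33 replicates 1 and 3 and Nbeal2-/- untreated replicate 4. Of those genes 44.1% were higher, against 33% with library totals.

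For the other 9 the 95% intervals of the difference all held 0. That of Stat5b ran from -0.00 to 0.30, that of Csf2rb2 from -0.09 to 0.35, that of Cish from -0.30 to 0.09 and that of Socs1 from -0.35 to 0.11. The ratio of Stat5b to Stat5a counts, chosen after its values were seen, was 1.19, 1.09, 1.14 and 1.12 in Nbeal2-/- with IL-33, 1.12, 1.15, 1.20 and 1.14 in Nbeal2-/- untreated, 1.11, 1.04, 1.07 and 1.09 in WT with IL-33 and 1.34, 1.29, 1.19 and 1.24 in WT untreated libraries. The IL-33 and untreated libraries overlapped in Nbeal2-/- cells and did not in WT cells. The exact two-sided permutation p was 0.514 in Nbeal2-/- and 0.0286 in WT cells, with adjusted values of 0.514 and 0.0571 over the 12 tests of ratios. The WT value is the lowest such a test can give, and neither p compares the genotypes. By edgeR's test of the difference of responses neither gene passed (adjusted p = 0.267 for Stat5b and 0.713 for Stat5a).

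**Figure D4:**
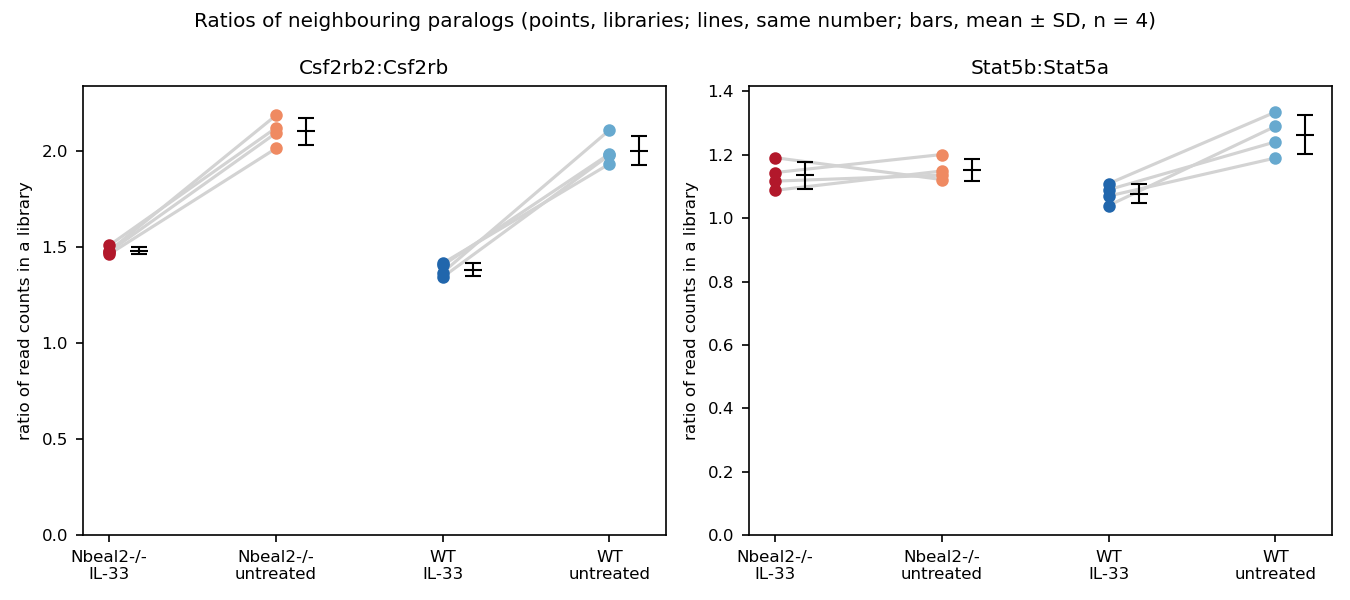
Ratio of the read counts of neighbouring paralogs within a library, for Csf2rb2 over Csf2rb and for Stat5b over Stat5a, by group. Points are libraries, grey lines join libraries of 1 genotype with the same number, and bars give the mean ± SD of 4; the Csf2rb2 ratio lies near 1.5 or below in both IL-33 groups and near 2.0 or above in both untreated groups.

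The rest of the pathway was read from 9 gene lists. Of all genes, 27.2% rose and 27.9% fell with IL-33 in Nbeal2-/- cells, and 28.9% rose and 28.6% fell in WT cells. The IL-33 counts of each list are to be read against these shares, and no list was tested as a set. For IL-33, up to 4 genes per list were named in WT cells and 2 in Nbeal2-/- cells. A gene given below for 1 genotype may therefore have changed in the other as well. Of the ligands of the beta common chain, only Csf2 (GM-CSF) was tested, since Il3 had at most 1 count and Il5 at most 8 counts in a library. Csf2 held 2134 counts over the 4 Nbeal2-/- libraries with IL-33 and 1 count over the Nbeal2-/- untreated ones, and 4965 counts with IL-33 and 3 counts untreated in WT libraries. It passed in both genotypes, and with IL-33 it was 2.11-fold lower in Nbeal2-/- than in WT cells (13.2 ± 2.42 against 27.9 ± 3.85 CPM; adjusted p = 5.26e-05). Of 21 tested partner chains and other JAK-STAT receptors, 10 rose and 8 fell with IL-33 in Nbeal2-/- cells, and 9 rose and 9 fell in WT cells (median log2 fold change of the list -0.08 in Nbeal2-/- and -0.09 in WT cells). Il2rg, the common gamma chain, rose 2.52-fold in Nbeal2-/- and 2.65-fold in WT cells, and Il27ra, an IL-27 receptor chain, rose 3.12-fold in Nbeal2-/- and 2.74-fold in WT cells. Il4ra, the IL-4 receptor alpha chain, fell to 457 ± 9.33 CPM with IL-33 in Nbeal2-/- cells, against 1168 ± 58.9 CPM untreated, and to 500 ± 22.6 CPM with IL-33 in WT cells, against 1402 ± 74.9 CPM untreated. Il2ra, the IL-2 receptor alpha chain and also a STAT5 target, was 9.73-fold higher with IL-33 in Nbeal2-/- cells and 5.60-fold higher in WT cells.

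Of the 4 JAK kinases, 3 rose in both genotypes and Jak1 did not pass (median 0.95 in Nbeal2-/- and 0.70 in WT cells). With library totals, and also without the 4 libraries numbered 1, 3 rose and 1 fell in WT cells. Jak2, the kinase of the beta chains, had 609 ± 13.1 CPM with IL-33 and 132 ± 11.2 CPM untreated in Nbeal2-/- cells (4.61-fold, adjusted p = 1.29e-13), and 501 ± 51.2 CPM with IL-33 and 139 ± 9.77 CPM untreated in WT cells (3.61-fold, adjusted p = 1.08e-12). Tyk2 rose 1.97-fold in Nbeal2-/- cells and 1.56-fold in WT cells, and Jak3 rose 1.69-fold in WT cells. Of the other STAT genes, Stat4 and Stat6 rose in both genotypes. Stat4 reached 76.0 ± 2.73 CPM with IL-33 in Nbeal2-/- cells, against 43.8 ± 1.57 CPM untreated, and 66.2 ± 0.755 CPM with IL-33 in WT cells, against 44.2 ± 1.41 CPM untreated. Stat6 rose 1.47-fold in Nbeal2-/- and 1.24-fold in WT cells. Among 8 other SOCS and PIAS genes, 2 rose and 4 fell in Nbeal2-/- cells (0 and 6 with library totals, 1 and 6 without the 4 libraries numbered 1), and 1 rose and 5 fell in WT cells (median -0.15 in Nbeal2-/- and -0.20 in WT cells). Socs5 fell 1.75-fold in Nbeal2-/- and 1.72-fold in WT cells and Socs6 1.34-fold in Nbeal2-/- and 1.42-fold in WT cells, while in WT cells Socs4 and Pias3 fell by 0.32 and 0.27 on the log2 scale.

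**Figure D5:**
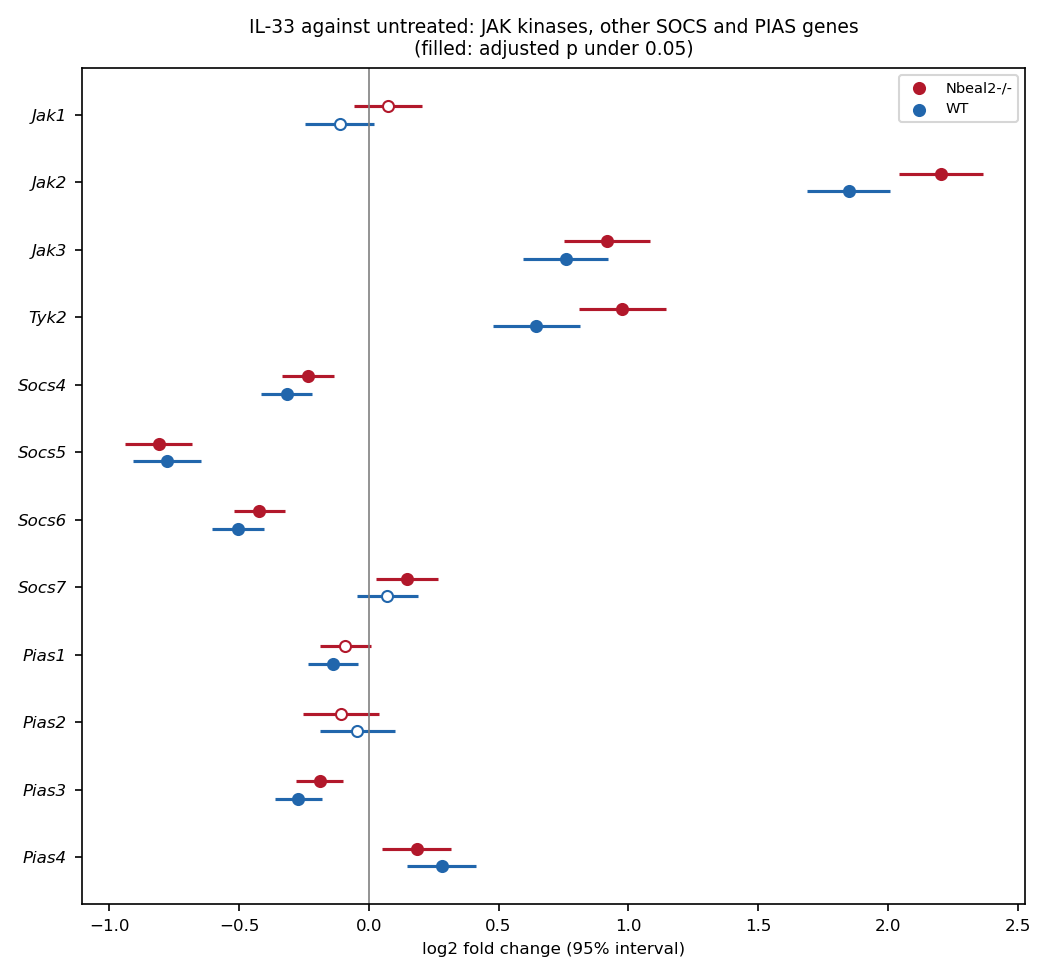
Log2 fold change with IL-33 against untreated (horizontal axis) of the JAK kinases and the other SOCS and PIAS genes, in Nbeal2-/- and WT cells, with 95% intervals from the edgeR fit of 16 libraries. Filled points passed the threshold of 0.05 after adjustment over all genes; Jak2 lies farthest to the right, and Socs4, Socs5, Socs6 and Pias3 are filled on the left in both genotypes.

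Of 11 phosphatases and other brakes, 3 rose and 5 fell in Nbeal2-/- cells (1 and 6 with library totals), and 3 rose and 7 fell in WT cells (1 and 7). Their median was -0.05 in Nbeal2-/- and -0.29 in WT cells. Dok2, an adaptor that damps kinase signals, fell 6.91-fold in Nbeal2-/- and 5.24-fold in WT cells. Inpp5d, the SHIP1 lipid phosphatase, fell 1.87-fold in Nbeal2-/- and 2.26-fold in WT cells. In WT cells Ptpn6, the SHP-1 phosphatase, rose 1.72-fold and Sh2b3, the LNK adaptor, fell 1.55-fold. Ptpn6 rose in Nbeal2-/- cells too, by less (difference of the log2 responses -0.338). Of 16 adaptors and downstream kinases, 7 rose and 3 fell in Nbeal2-/- cells (2 and 3 with library totals), and 8 rose and 3 fell in WT cells (3 and 4, and 6 and 5 without the 4 libraries numbered 1). Their median was 0.10 in Nbeal2-/- and 0.08 in WT cells. Lyn rose 1.38-fold in Nbeal2-/- and 1.35-fold in WT cells, Gab2 rose 1.34-fold in Nbeal2-/- cells, and Pik3cd fell 1.31-fold in WT cells.

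Of 17 STAT5 target genes, 4 rose and 9 fell with IL-33 in Nbeal2-/- cells, and 6 rose and 6 fell in WT cells, with medians of -0.27 in Nbeal2-/- and -0.05 in WT cells. With library totals 4 rose and 10 fell in Nbeal2-/- cells, and 6 rose and 9 fell in WT cells. Without the 4 libraries numbered 1, 8 fell in WT cells. Bcl2l1, which encodes the survival protein Bcl-xL, had 205 ± 6.42 CPM with IL-33 and 45.2 ± 2.34 CPM untreated in Nbeal2-/- cells, and 216 ± 10.7 CPM with IL-33 and 50.3 ± 2.48 CPM untreated in WT cells. Tnfrsf13b fell 1.86-fold in Nbeal2-/- and 2.62-fold in WT cells, and the kinase gene Pim1 fell 1.70-fold in WT cells. Of 11 STAT3 target genes, 5 rose and 5 fell in Nbeal2-/- cells (3 and 5 with library totals), and 4 rose and 5 fell in WT cells, with medians of 0.18 in Nbeal2-/- and -0.05 in WT cells. Bcl3, an NF-kB cofactor, rose 9.02-fold in Nbeal2-/- and 7.27-fold in WT cells. In WT cells Icam1 rose 2.38-fold and Fgl2 fell 2.13-fold. Both target lists held genes that moved in each direction.

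Between untreated Nbeal2-/- and WT cells, 18.4% of all genes were higher and 17.5% lower. Of the 21 receptors 1 was higher and 9 were lower. Il10ra had 222 ± 15.7 CPM in Nbeal2-/- and 339 ± 34.8 CPM in WT cells, and the low Il7r was 4.27-fold lower. Jak1 of the JAK kinases (log2 -0.20, adjusted p = 0.0219, and 0.0752 or 0.0536 without WT untreated replicate 2 or 4), Stat2 and Stat6 of the other STAT genes (log2 -0.29 and -0.19) and Pias3 of the SOCS and PIAS genes (log2 -0.18) were lower, and none of these 3 lists had a higher gene. Without the 4 libraries numbered 1, 3 JAK kinases and 2 SOCS and PIAS genes were lower. The brakes split into 3 higher and 5 lower, with Ptpn6 1.49-fold higher and Cblb 1.34-fold lower. The adaptors split into 3 higher and 5 lower, with Fyn lower by 0.33 on the log2 scale. The STAT5 targets split into 6 higher and 5 lower, with Myc 1.61-fold and Pim3 1.68-fold higher. The STAT3 targets split into 3 higher and 5 lower, with Junb 1.77-fold higher and Myc on this list too.

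With IL-33, 5.49% of all genes were higher in Nbeal2-/- than in WT cells and 5.69% lower. Of the receptors 2 were higher and 3 lower, with Ifnar2 1.17-fold higher and Il7r 3.27-fold lower. Jak2 was 1.22-fold higher, and that call ended without WT IL-33 replicate 1 (adjusted p = 0.0543) or 4 (0.0692) or Nbeal2-/- IL-33 replicate 2 (0.0513) or 3 (0.0578). Stat4 was 1.15-fold higher. None of the other SOCS and PIAS genes passed. Of the brakes 2 were higher and 1 lower, with Ptpn6 1.18-fold and Dok1 1.15-fold higher. The Dok1 call ended without WT IL-33 replicate 4 (adjusted p = 0.0697) or Nbeal2-/- IL-33 replicate 3 (0.0548) or 4 (0.0587). Of the adaptors 1 was higher and 2 lower, with Pik3cd 1.26-fold higher and Fyn 1.14-fold lower. Fyn sat at the threshold (adjusted p = 0.0481, and 0.0570 to 0.132 without any 1 of WT IL-33 replicates 1 to 3, Nbeal2-/- IL-33 replicates 1 to 4 and Nbeal2-/- untreated replicates 2 to 4). Of the STAT5 targets 4 were higher and 1 lower, with Tnfrsf13b 1.28-fold and Myc 1.21-fold higher. Of the STAT3 targets 4 were higher, with Fgl2 1.69-fold and Saa3 2.15-fold higher. Without the 4 libraries numbered 1, 2 receptors were higher and 1 lower, 2 JAK kinases were higher, the brakes split 3 higher to 1 lower, the adaptors 1 to 1, the STAT5 targets 3 to 2 and the STAT3 targets 4 to 1.

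The genes whose pattern over the 16 libraries was most like that of a member were found by the root mean square difference of centred log2 CPM, over 9527 genes that averaged 5 CPM or more. The nearest to Csf2rb2 were Stxbp5 (0.052) and Ndst1 (0.069), against a spread of Csf2rb2 itself of 0.343. The nearest to Stat3 were Rbl2 (0.065) and Zrsr1 (0.066), against its spread of 0.465. The nearest to Socs1 were Dtnbp1 (0.083) and Wbp1 (0.106), against its spread of 0.525. Stat5a was nearest to Fli1 and Naa60, Stat5b to Fbxl12 and Pde4a, Cish to Tbcd and Gga1 and Socs2 to Snapc1 and Spopl, at 0.031 to 0.073.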

How the data were processed

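RNA was extracted with Qiazol, and libraries were made from 500 ng of total RNA with a poly(A) selection and a directional kit, per the labels' protocols. The authors deposited raw read counts per gene, made with bcl2fastq 2.20.0.422 and featureCounts 1.6.5 on GRCm38, per the submitters' processing notes. The sources used here name no aligner, annotation release or strand option. The deposited RPM values equal the counts scaled by the library total, to within 4.91e-11, and the deposited RPKM values are scaled per kilobase of exon as well. No 2 libraries agreed within sampling noise (chi-square over its degrees of freedom was 5.34 or more).

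Of 55487 genes, 15470 passed edgeR's filterByExpr over the 4 groups. Counts were fitted in R 4.3.3 with edgeR 4.0.16 (TMM, robust quasi-likelihood test, 4 group means over 16 libraries), with Benjamini-Hochberg adjustment over all tested genes and a threshold of 0.05. CPM values are TMM-scaled, standard errors come from the log2 fold change and its F statistic, and intervals are 95%. The common biological coefficient of variation was 9.56%. Levels between genes are compared by RPKM only. Alternatives used DESeq2 1.42.0, limma 3.58.1 on log2(RPM + 1) and log2(RPM + 0.1), other scalings and filters, blocks and left-out libraries.

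The replicate number paired libraries within a genotype: deviations from the group means of same-numbered IL-33 and untreated libraries correlated at 0.144 to 0.326, and 8 of 8 matched their own number best. Across genotypes the correlation of same-numbered libraries ran from -0.034 to 0.455. It was highest for number 1, at 0.455 untreated and 0.206 with IL-33, and there the Nbeal2-/- libraries matched their own number best. Number 3 with IL-33 did so too, at 0.033, and the remaining pairs did not. What the libraries numbered 1 share across genotypes is not given in the labels and was not tested. The members and lists were chosen with earlier results of these data known. Genes named from a list were the 4 with the smallest p that passed for IL-33 in WT cells and 2 in each other comparison; likeness was sought for members that passed in any comparison, leaving out predicted genes. Some genes that this rule names are not reported here.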

Additional observations from a re-analysis of the deposited data

Results flagged for a closer look

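In 3 of 40 groups of 4 libraries 1 library lay far from the rest by Dixon's 95% criterion, and chance alone gives about 5% of groups. Il3ra in Nbeal2-/- cells with IL-33 was lowest at 72.36 CPM in replicate 4, against 73.74 to 73.78 CPM in the others, a gap of under 2 CPM. Stat5a in WT untreated cells was lowest at 135.8 CPM in replicate 1, against 159.8 to 162.2 CPM. Socs1 in Nbeal2-/- untreated cells was highest at 292.2 CPM in replicate 1, against 212.9 to 223.6 CPM.

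The response to IL-33 differed between the genotypes by the interaction test for Stat3, at 0.386 on the log2 scale, Nbeal2-/- minus WT. At most 2 genes per list were named, and of these it differed for 8 more. By list, the difference was positive for 1 of 21 receptors and 2 of 4 other STAT genes. The 11 brakes split 1 positive to 1 negative, the 17 STAT5 targets 1 to 3 and the 11 STAT3 targets 2 to 3. No JAK kinase, other SOCS or PIAS gene or adaptor passed. Of all genes 4.56% passed. Without the 4 libraries numbered 1, the difference was positive for 4 receptors, 2 JAK kinases and 1 adaptor. The receptor gene Il10ra had a difference of 0.569 (adjusted p = 0.00416). The STAT genes Stat6 and Stat4 had differences of 0.247 (adjusted p = 0.0343) and 0.211 (adjusted p = 0.0403), and both rose more in Nbeal2-/- cells. These and Ptprc sat near the threshold: leaving out any 1 of several libraries, WT untreated replicate 2 among them, gave adjusted p up to 0.0798 for Stat6, 0.0958 for Stat4 and 0.0930 for Ptprc. Pairing the same-numbered libraries of a genotype ended the calls of Stat6 (adjusted p = 0.0537) and Stat4 (adjusted p = 0.0701). The phosphatase gene Ptpn6 had -0.338 (adjusted p = 0.00656), with means of 423 CPM with IL-33 and 311 CPM untreated in Nbeal2-/- cells and 359 CPM with IL-33 and 208 CPM untreated in WT cells. The phosphatase gene Ptprc had 0.322 (adjusted p = 0.0407). Tnfrsf13b had 0.493 (adjusted p = 0.000828) and Myc -0.414 (adjusted p = 0.00358), where Myc averaged 195 CPM with IL-33 and 270 CPM untreated in Nbeal2-/- cells and 162 CPM with IL-33 and 168 CPM untreated in WT cells. Fgl2 had 0.608 (adjusted p = 0.00254).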

How the results depend on the processing

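No direction of a member or named gene that passed was reversed under any alternative run. With IL-33, the count of members that differed between Nbeal2-/- and WT cells was 0 as reported and 1 with library totals, non-robust dispersion, DESeq2, limma with either pseudocount, a block on the replicate number, only the 8 libraries compared, or without the 4 libraries numbered 1, and 0 to 1 over single left-out libraries. That member was Stat5a with only the 8 libraries, Il3ra without the 4 numbered 1, and Socs3 in the others. Genes that passed in that comparison numbered 1730, and 3113 with only the 8 libraries. Genes whose response differed numbered 706, against 1207 with DESeq2, 1202 without both WT libraries numbered 1, 1279 without the 4 libraries numbered 1, and 439 to 1174 over single left-out libraries. Over the alternatives run, members that passed numbered 6 to 9 for IL-33 in Nbeal2-/- cells, 7 to 8 for IL-33 in WT cells, 2 to 4 for untreated Nbeal2-/- against WT cells, and 1, Stat3, for the difference of responses. Pairing same-numbered libraries of a genotype gave 6, 8 and 1 members and ended the calls of Stat6 and Stat4 for the difference of responses; a block on the number across genotypes added Socs3 for untreated cells (adjusted p = 0.0445) and for cells with IL-33 (0.0149). Il3ra with IL-33 in Nbeal2-/- cells passed in 13 of 28 alternatives. The causes were not tested. The fit without the 4 libraries numbered 1 was chosen after seeing the data. Precision is limited by 4 libraries a group, and for Socs3 by its spread.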
